A study of Mus musculus with 24 samples.

Results

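The 7 leukocyte miRNAs measured here were mmu-miR-142-3p, mmu-miR-142-5p, mmu-miR-146a, mmu-miR-150, mmu-miR-155, mmu-miR-223 and mmu-miR-342-3p, taken by name from the 566 mouse miRNAs on the Agilent miRNA array. All 7 were on the array. The study set 2 reference RNA pools against each other on several miRNA array technologies, to ask how well the technologies agree. For Reference 1, RNA of testicle, ovary and embryos of 10 to 12 days was mixed in equal shares. For Reference 2, RNA of liver, heart and lung was mixed in the same way. Both were made from commercial mouse total RNA that included the small fraction, and neither carried a treatment or a named genotype. The strain and the age of the adult animals were not given in the sources used here. By the study's methods each reference was hybridized in one color to 4 Agilent arrays, all on a single slide. An array with very poor signal failed quality control, and 2 arrays of each reference were then picked at random for analysis. The data used here are of 2 arrays per reference. The 2 samples of a reference were aliquots of the same pool, so the p-values below measure technical spread only and not the spread between animals.

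A miRNA is a short RNA that guides Argonaute proteins to messenger RNAs, mainly by pairing through its seed, the bases 2 to 8 from its 5′ end. The leukocyte miRNAs are known from blood cells and their precursors. miR-142 is found across the blood lineages, miR-223 is best known from granulocytes and monocytes, and miR-150 from mature lymphocytes. miR-146a and miR-155 are induced when immune cells are activated. Liver and lung hold many resident and circulating leukocytes, and every perfused organ carries some blood. None of the pools was sorted by cell type, and fewer cells of a type cannot be told apart from less of a miRNA per cell in such pooled RNA.

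The mature sequences are shown to tell the members apart by seed. Of the 7, 6 matched an entry in the RefSeq table (mouse build GRCm38.p6), and these 6 had 6 different seeds. The sequences are printed 5′ to 3′ with the seed in capitals.
miR-142a-5p (miR-142-5p on the array): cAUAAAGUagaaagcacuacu
miR-142a-3p (miR-142-3p on the array): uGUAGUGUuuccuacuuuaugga
miR-146a-5p (miR-146a on the array): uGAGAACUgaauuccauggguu
miR-155-5p (miR-155 on the array): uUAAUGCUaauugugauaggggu
miR-223-3p (miR-223 on the array): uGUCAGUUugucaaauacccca
miR-342-3p: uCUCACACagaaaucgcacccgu

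The 7 miRNAs come from 6 hairpins, since both miR-142 arms are cut from one. The Mir142 hairpin lies at chr11:87756864-87756927 on the plus strand and is 64 bases long. It is printed because it is the single precursor behind the pair of members with the largest differences, with the 5p arm (bases 4 to 24) and the 3p arm (bases 40 to 62) in capitals.
Mir142 hairpin: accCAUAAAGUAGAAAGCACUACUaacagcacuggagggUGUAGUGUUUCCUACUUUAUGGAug
The other hairpins are Mir146 on chromosome 11 (43374397 to 43374461), Mir150 on chromosome 7 (45121757 to 45121821), Mir155 on chromosome 16 (84714140 to 84714204), Mir223 on chromosome X (96242817 to 96242926) and Mir342 on chromosome 12 (108658620 to 108658718). Mir155 lies within the annotated span of its host transcript Mir155hg, Mir342 within that of Evl and Mir223 within that of F630028O10Rik. The table gives spans only, so exons and introns were not told apart.

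Each leukocyte miRNA had 20 spots per array, 10 for each of 2 probes. Spot values are the median signal without background subtraction, on the log2 scale after cyclic lowess over the 4 arrays, and a miRNA's level is the median over its spots. With the background left in, the difference of a miRNA close to it is smaller than the difference in RNA. The 2 samples of a reference had a Pearson correlation of 0.9996 for Reference 1 and 0.9994 for Reference 2 across the 566 miRNAs, which are not independent replicates. The median signal of the negative control spots was 44 to 48 on the Reference 1 arrays and 47 to 49 on the Reference 2 arrays, and no spot was saturated. A miRNA was counted as well above background on an array where over 50% of its spots carried that mark from the scanner software. By this count 183 and 188 miRNAs were well above background on the Reference 1 arrays and 139 and 139 on the Reference 2 arrays.

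Most leukocyte miRNAs were lower in Reference 1. Of the 7, 6 had a lower level in Reference 1 than in Reference 2 and none had a higher one, by the limma test across all 566 miRNAs (Benjamini-Hochberg adjusted p under 0.05). The exception was miR-342-3p. Over all miRNAs, 29.9% were called lower in Reference 1 and 59.2% were called in either direction (169 lower and 166 higher). The median log2 difference, Reference 1 minus Reference 2, was -1.20 over the 7 leukocyte miRNAs and -0.01 over all 566. Among the 210 miRNAs well above background on at least 1 array, 92 were lower and 103 higher in Reference 1, with a median difference of 0.08. The 2 samples of Reference 1 lay below both samples of Reference 2 for all 7 leukocyte miRNAs, a separation that 43.3% of all miRNAs also showed.

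**Figure D1:**
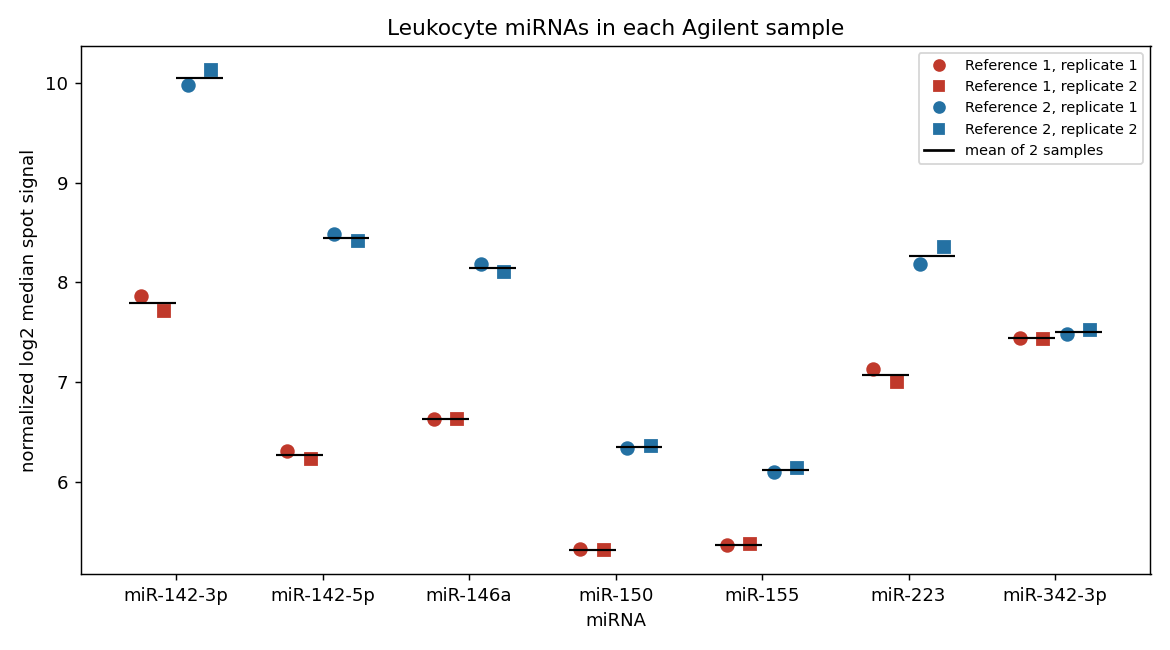
Normalized log2 median spot signal (vertical axis) of each leukocyte miRNA (horizontal axis) in the 4 Agilent samples, with Reference 1 in red left of Reference 2 in blue and a bar at the mean of each pair. The gap between references is widest for miR-142-3p (-2.26) and miR-142-5p (-2.18), and the miR-342-3p levels span 0.08.

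Both arms of miR-142, the hairpin found across blood lineages, had the largest differences of the 7. The mmu-miR-142-3p level was 7.87 and 7.71 in the Reference 1 samples, against 9.97 and 10.13 in the Reference 2 samples. The mmu-miR-142-5p level was 6.30 and 6.23 in the Reference 1 samples, against 8.48 and 8.41 in the Reference 2 samples. Neither arm had overlapping samples. miR-142-3p differed by -2.26 (SE 0.064, limma adjusted p = 3.94e-12), or 4.80-fold lower in Reference 1, and ranked 7th from the lowest difference of the 566. miR-142-5p differed by -2.18 (SE 0.045, limma adjusted p = 2.48e-13), or 4.54-fold lower in Reference 1, and ranked 8th.

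The miR-142-3p and miR-142-5p differences held on each of their probes. The brighter miR-142-3p probe read 8.75 and 8.73 in the Reference 1 samples, against 10.83 and 10.93 in the Reference 2 samples, a difference of -2.14. Its dimmer probe read 7.04 and 6.90 in the Reference 1 samples, against 9.38 and 9.34 in the Reference 2 samples, a difference of -2.39. The miR-142-5p probes differed by -2.19 and -2.18. All 20 spots of each arm were well above background on all 4 arrays. In the scanner software's own background-subtracted signal, without normalization between arrays, miR-142-5p averaged 45.2 and 45.5 in the Reference 1 samples, against 255.6 and 246.4 in the Reference 2 samples. That signal was 5.53-fold lower in Reference 1 for miR-142-5p and 5.08-fold lower for miR-142-3p.

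mmu-miR-223, known from the myeloid lineage, was bright enough to be measured on every array. Its level was 7.13 and 7.0 in the Reference 1 samples, against 8.18 and 8.35 in the Reference 2 samples. The groups did not overlap, although the samples of a reference differed more for miR-223 than for miR-146a, miR-150 or miR-155. The difference was -1.20 (SE 0.061, limma adjusted p = 1.48e-09), or 2.29-fold lower in Reference 1. Its probes differed by -1.14 and -1.31. The background-subtracted signal averaged 130.9 and 129.9 in the Reference 1 samples, against 293.0 and 322.8 in the Reference 2 samples.

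The activation-induced mmu-miR-146a, which NF-κB switches on and which represses Traf6 and Irak1, was also lower in Reference 1. Its level was 6.63 and 6.63 in the Reference 1 samples, against 8.18 and 8.10 in the Reference 2 samples. The Reference 1 samples were nearly equal and lay well below both Reference 2 samples. The difference was -1.51 (SE 0.044, limma adjusted p = 4.89e-12), or 2.85-fold lower in Reference 1, and its probes differed by -1.63 and -1.44. The dimmer of these probes had 8 and 10 of its 10 spots well above background in the Reference 1 samples.

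miR-146b, made from another hairpin on chromosome 19, was the only miRNA in the RefSeq table found to share a seed with a leukocyte member. Seeds were compared for the 6 members matched in that table, which leave out miR-150. miR-146b is shown because probes for such close relatives can bind each other's target.
miR-146a-5p: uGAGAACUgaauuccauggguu
miR-146b-5p: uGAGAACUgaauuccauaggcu
Counted from base 1 at the 5′ end, miR-146b differs from miR-146a by G18A and U21C, with 20 of 22 bases the same. The miR-146b level was 5.49 and 5.43 in the Reference 1 samples, against 6.62 and 6.64 in the Reference 2 samples. The samples did not overlap, and the difference was -1.17 (SE 0.030, limma adjusted p = 1.78e-12). In the Reference 1 samples 15% and 40% of its spots were well above background, so it has only a bound there, at least 2.00-fold lower in Reference 1. Such a bound sets the dim reference at the lowest signal of any miRNA well above background on each array, or at the miRNA's own level where that is higher. The miR-146b probes gave unequal differences of -0.50 and -1.79. How much of each signal came from the other miRNA was not tested.

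mmu-miR-155, made from the Mir155hg transcript and induced in activated B cells, T cells and macrophages, was among the dimmest members. Its level was 5.36 and 5.37 in the Reference 1 samples, against 6.09 and 6.14 in the Reference 2 samples. The difference was -0.75 (SE 0.026, limma adjusted p = 3.19e-11). None of its spots was well above background in Reference 1, and 50% were in each Reference 2 sample, so by the count above no array passed and no fold is given for the miRNA. The split followed the probes. One probe read 5.40 and 5.38 in the Reference 1 samples, against 6.62 and 6.62 in the Reference 2 samples, with 10 of 10 spots well above background in each Reference 2 sample, and was at least 2.1-fold lower in Reference 1. The other read 5.32 and 5.35 in the Reference 1 samples, against 5.60 and 5.63 in the Reference 2 samples, with no spot well above background on any of the 4 arrays.

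mmu-miR-150, a miRNA of mature lymphocytes that represses Myb, was well above background in Reference 2 only. Its level was 5.32 and 5.31 in the Reference 1 samples, against 6.33 and 6.36 in the Reference 2 samples. No spot was well above background in Reference 1, against 95% of spots in each Reference 2 sample. The difference was -1.03 (SE 0.026, limma adjusted p = 1.39e-12) and the bound was at least 1.65-fold lower in Reference 1. Its probes differed by -0.68 and -1.38, with bounds of at least 1.38-fold and 2.14-fold lower in Reference 1.

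The sizes of the miR-150 and miR-155 differences depended on the treatment of background and on the scaling. In the background-subtracted signal miR-150 averaged 1.08 and 1.53 in the Reference 1 samples, against 26.8 and 25.3 in the Reference 2 samples. miR-155 averaged 1.17 and 2.58 in the Reference 1 samples, against 19.0 and 20.7 in the Reference 2 samples. The Reference 1 values lay close to 0, so their ratios are not given. Both stayed lower in Reference 1 with an adjusted p under 0.05 when this signal replaced the median signal, over the 14 and 10 spots above 0 on all arrays, but the fitted size has no meaning against values at background. With scaling to the 75th percentile of miRNAs well above background the log2 difference was -0.61 for miR-150 and -0.44 for miR-155. These too had an adjusted p under 0.05.

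**Figure D2:**
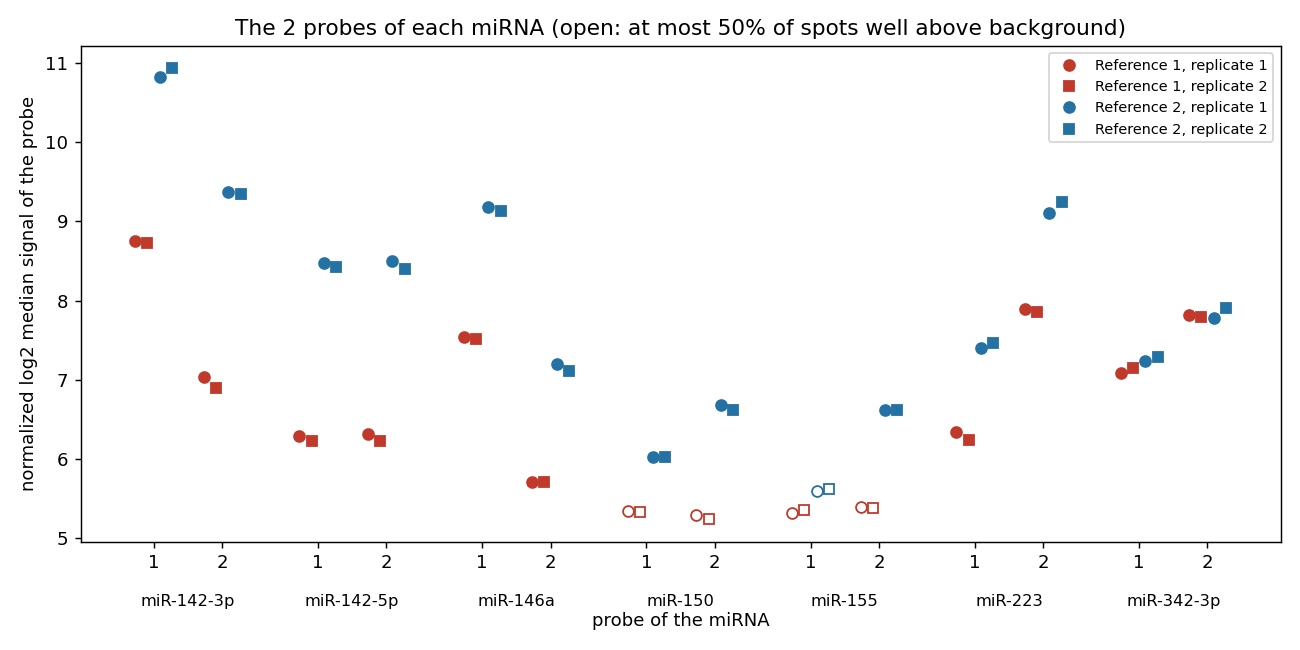
Normalized log2 median signal (vertical axis) of the 2 probes of each leukocyte miRNA (horizontal axis) in the 4 samples, Reference 1 in red left of Reference 2 in blue. Open symbols mark probes with at most 50% of their spots well above background, which are all the miR-150 and miR-155 values of Reference 1 and one miR-155 probe in Reference 2.

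mmu-miR-342-3p, from the Evl locus and known from lymphoid and other tissues, did not pass the test. Its level was 7.44 and 7.43 in the Reference 1 samples, against 7.49 and 7.52 in the Reference 2 samples. All of its spots were well above background on all 4 arrays, so that its signal was not limited by detection. The difference was -0.06 (SE 0.041, limma adjusted p = 0.212), with a 95% interval of -0.15 to 0.03, and its probes differed by -0.14 and -0.04. The interval does not reach the difference of any of the other 6 members.

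The direction and the call of miR-342-3p depended on the processing. Its raw median signal was 203.3 and 205.3 in the Reference 1 samples, against 152.0 and 161.0 in the Reference 2 samples, so that before normalization it was higher in Reference 1. The difference was 0.38 with no normalization, 0.34 with median centering and 0.40 with scaling to the 75th percentile of miRNAs well above background, all with an adjusted p under 0.05. It was -0.23 with scaling to the 75th percentile of all spots, also with an adjusted p under 0.05, but that scaling moved the median of all 566 miRNAs to -0.63, so relative to it miR-342-3p was 0.40 higher. It was also called lower with the mean over spots (-0.10, limma adjusted p = 0.020) and without the intensity trend (-0.06, limma adjusted p = 0.048). The same scalings moved the split of calls over all miRNAs, which was 166 higher and 169 lower in Reference 1 as reported. The split was 178 higher and 320 lower with median centering, 164 and 73 with no normalization, 76 and 465 with the 75th percentile of all spots, and 185 and 73 with the 75th percentile of miRNAs well above background. The 6 other leukocyte miRNAs stayed lower in Reference 1 and past the threshold under each of these scalings.

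**Figure D3:**
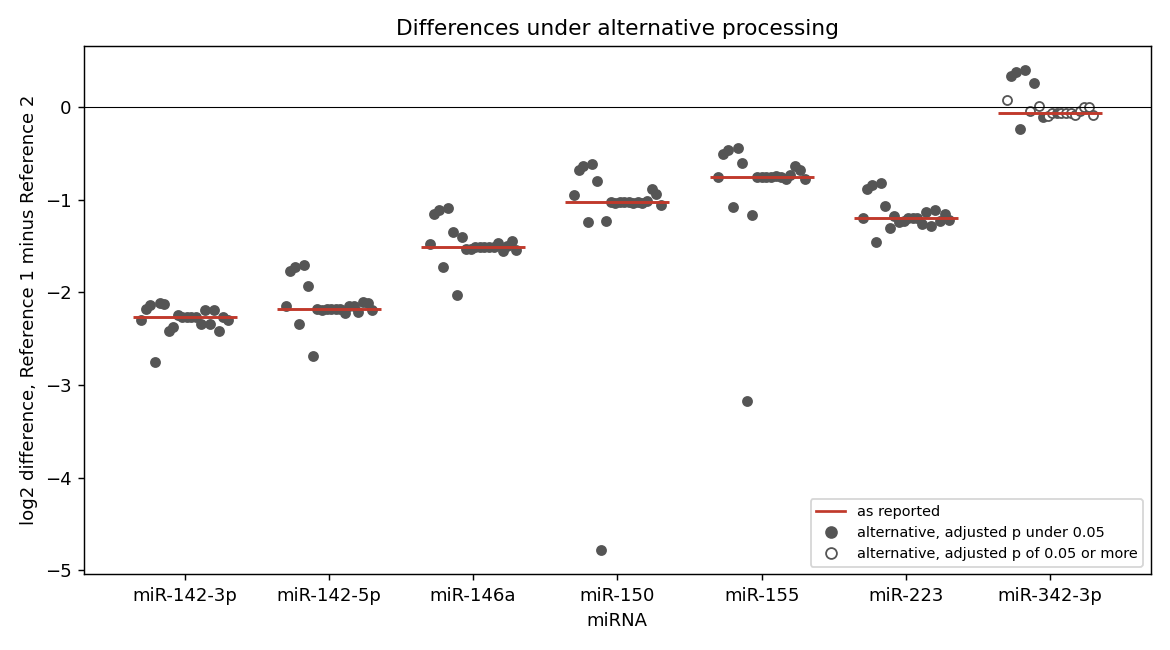
Log2 difference, Reference 1 minus Reference 2 (vertical axis), of each leukocyte miRNA (horizontal axis), as reported (red line) and under each alternative processing (points, spread sideways only for legibility; filled where the adjusted p was under 0.05). The points of 6 miRNAs lie below 0, and those of miR-342-3p lie on both sides, between -0.23 and 0.40. The lowest miR-150 and miR-155 points use the processed signal, which was at background in Reference 1, and give no size.

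The other arms of these hairpins on the array had no spot well above background. miR-150* (the 3p arm of Mir150) read 5.26 and 5.27 in the Reference 1 samples, against 5.22 and 5.21 in the Reference 2 samples. miR-342-5p read 5.39 and 5.39 in the Reference 1 samples, against 5.39 and 5.36 in the Reference 2 samples. By the study's own present rule, a spot at or above the trimmed mean of the negative controls plus 3 trimmed SDs, 15% and 20% of the miR-342-5p spots passed in the Reference 1 samples, against 0% in the Reference 2 samples. No miR-150* spot passed on any of the 4 arrays. miR-150* passed the test (difference 0.05, limma adjusted p = 0.013), but neither reference was well above background and no direction is given.

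Among all 566 miRNAs, the 6 lower leukocyte members ranked between the 7th and the 57th lowest difference, and miR-342-3p ranked 148th. The miR-142 arms stood 0.08 apart, and the next member, miR-146a, stood 0.67 above miR-142-5p; differences between members were not tested. The members with the smallest called differences, miR-150 and miR-155, were also the ones not well above background in Reference 1.

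**Figure D4:**
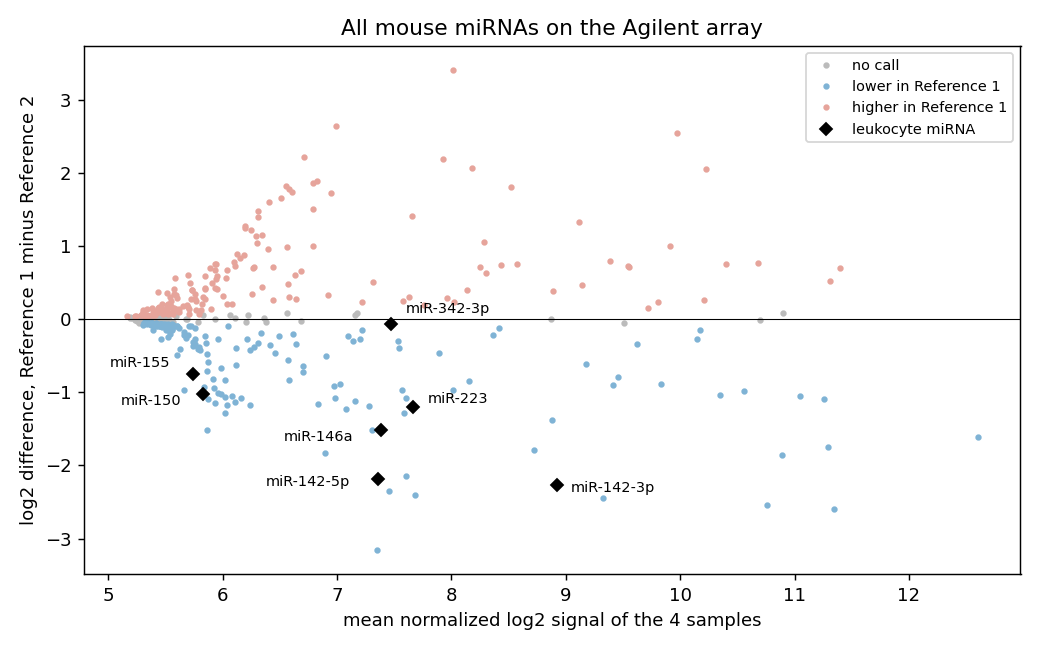
Log2 difference, Reference 1 minus Reference 2 (vertical axis), against the mean normalized log2 signal of the 4 samples (horizontal axis) for all 566 mouse miRNAs, colored by call, with the leukocyte miRNAs as black diamonds. The leukocyte miRNAs lie between -2.26 and -0.06, with miR-150 and miR-155 at the dim end.

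Profiles most like the members' were sought among the 112 other miRNAs well above background on all 4 arrays. The measure was the Euclidean distance between centered log2 values over the 4 samples, taken from the median profile of the 5 members well above background on all arrays. The nearest was miR-30d, at a distance of 0.07. It was followed by miR-451 (0.13), an erythroid miRNA, then miR-29c (0.16), the endothelial miR-126-3p (0.25) and miR-378 (0.25). Their log2 differences were -1.52, -1.61, -1.38, -1.75 and -1.29 in that order. The measure is a description over 4 samples in 2 groups. The 5 members behind the median profile had differences from -2.26 to -0.06, so a miRNA near that profile need not be like each of them.

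Other miRNAs that have been studied in leukocytes were called in both directions. Of 22 such miRNAs, which are also expressed in many other cell types, 5 were higher in Reference 1, 10 were lower and 7 were not called, with a median difference of -0.02. Of the 22, 4 (miR-181d, miR-132, miR-147 and miR-9) were not counted as well above background on any array, and the median over the other 18 was -0.32. The largest differences were 1.34 for miR-19b of the miR-17-92 cluster, -1.17 for miR-146b and -1.09 for miR-21 (called by limma, adjusted p = 2.35e-11, 1.78e-12 and 5.74e-10). The split depended on the scaling, with 2 higher and 18 lower (median -0.59) with the 75th percentile of all spots, 11 higher and 10 lower (median 0.04) with the 75th percentile of miRNAs well above background, and 11 higher and 8 lower of 20 (median 0.26) with the processed signal.

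miRNAs of other cell types differed between the pools together with the leukocyte members. The leukocyte members summed to a normalized signal of 765 to 807 in Reference 1, against 2273 to 2397 in Reference 2. All 3 erythroid miRNAs (miR-144, miR-451 and miR-486) were lower in Reference 1, with a summed signal of 3684 to 3742 in Reference 1 against 11412 to 11730 in Reference 2. Both endothelial miRNAs (miR-126-3p and miR-126-5p) were lower, with 1396 to 1431 in Reference 1 against 4619 to 4685 in Reference 2, and miR-126-5p was not well above background on any array.

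Markers of the pooled organs were set beside the labels. The lists were chosen with earlier results of these data known, so this is not an independent check of the labels. All 6 miRNAs of the cardiac and striated muscle list (miR-1, miR-133a, miR-133b, miR-208a, miR-208b and miR-499) were lower in Reference 1 (2389 to 2520 in Reference 1 against 11945 to 12336 in Reference 2), and so were all 3 hepatocyte miRNAs (892 to 923 against 4707 to 4843). The muscle list left out the skeletal muscle mmu-miR-206, named here after its values were seen, which was at least 3.24-fold higher in Reference 1 (limma adjusted p = 4.98e-14), with 100% of its spots well above background in Reference 1 and 0% in Reference 2. Of 11 male germline and ciliated cell miRNAs 9 were higher in Reference 1 (2416 to 2420 in Reference 1 against 814 to 817 in Reference 2), and all 6 mesenchymal and embryonic miRNAs were higher (6397 to 6414 against 1344 to 1365). On no array were 3 of the 11 germline and ciliated cell miRNAs (miR-449b, miR-465a-5p and miR-881) well above background. The 8 well above background on at least 1 array were all higher. With the 75th percentile of all spots 3 of the male germline and ciliated cell miRNAs were instead called lower, and with median centering 1 was. All 5 members of the miR-200 family, which made up the epithelial list, were lower (442 to 449 in Reference 1 against 797 to 832 in Reference 2), although 1 of them was called higher without normalization, under median centering and under the 75th percentile of miRNAs well above background. The epithelial mmu-miR-203 and mmu-miR-205, outside that list and also named after their values were seen, were at least 1.91-fold and 1.42-fold higher in Reference 1 (limma adjusted p = 4.71e-11 and 3.13e-11). Both smooth muscle miRNAs were lower as reported, with a median difference of -0.16 (399 to 405 in Reference 1 against 428 to 457 in Reference 2). That median turned to 0.24 with no normalization, 0.20 under median centering, 0.26 under the 75th percentile of miRNAs well above background and 0.16 with the processed signal. Only 1 of the 2 was called lower with quantile normalization, without outlier spots and with the deposited values, and 0 with cyclic lowess in 1 pass. The part of each cell type in the leukocyte differences was not tested, and blood content and tissue cannot be told apart in these pools.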

How the data were processed

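Agilent miRNA arrays were hybridized in one color, and 2 samples of each reference were used. The authors scanned the arrays and extracted spot intensity values with Agilent Feature Extraction 9.5.3.1, and these were deposited before normalization. The authors also deposited log2 values after cyclic lowess, used here only as an alternative. Following the methods, the log2 median signal of 11540 spots per array was normalized by cyclic lowess (limma 3.58.1 in R 4.3.3, 3 iterations, span 0.7) and each of 566 mouse miRNAs was given its spots' median. The references were compared with limma's lmFit and eBayes with an intensity trend, with p-values adjusted by Benjamini-Hochberg over all 566 and a threshold of 0.05. All 7 members are named, with their other arms, seed-sharing miRNAs and the 5 nearest profiles. Up to 3 miRNAs per marker list are named for the size of their difference. Other list members are named to show what a list held or which were not well above background. Outside the lists, miR-203, miR-205 and miR-206 were named after their values were seen. The members and lists were chosen with earlier results of these data known. Arrays of the other technologies carried numbered probes without miRNA names and were not used here. The number of arrays limits the precision.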

Additional observations from a re-analysis of the deposited data

How the results depend on the processing

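The count of miRNAs that differed between the references, 335, was 541 with scaling to the 75th percentile of all spots, 213 with the processed signal (298 miRNAs measured) and 197 among the 210 miRNAs well above background on at least 1 array; fewer were tested in the last 2. It was 237 with no normalization and 498 with median centering, and the median of all miRNAs moved by over 0.1 only with the 75th percentile of all spots (-0.63) and the processed signal (0.16). The count of leukocyte miRNAs called ranged from 5 of 6 to 7 of 7. The 6 members other than miR-342-3p stayed lower and past the threshold in each of 20 alternatives (19 for miR-155, which the background filter removed). miR-342-3p was above 0 in 7 of 20: 0.073 with quantile normalization, 0.34 with median centering, 0.38 with no normalization, 0.40 with the 75th percentile of miRNAs above background, 0.27 with the processed signal, 0.012 without outlier spots and 0.0064 with cyclic lowess in 1 pass, an alternative chosen after seeing the data, as were lowess against the mean array and a count by probe. It was called lower in 3, the 75th percentile of all spots (-0.23), the mean over spots (-0.10) and without the intensity trend (-0.06), and higher in 4. The cause was not tested. Leaving out 1 sample gave 300 to 321 miRNAs and 6 members called; the sample left alone was assumed to vary like the others. Same-numbered samples share only a number, with deviations correlating at 0.07, and the replicate block gave 348 miRNAs and the same count of 6 members. By probe, 7 rather than 6 members were above background in Reference 2. The share of spots above background gives no count and stands in the report only.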
